A study of Homo sapiens with 8 samples.

Results

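The integrated stress response is described here through 10 genes that belong to it or are known targets of it: the transcription factor genes ATF4, CEBPG, DDIT3 and ATF3, the mTOR inhibitors DDIT4 and SESN2, the pseudokinase gene TRIB3, and CHAC1, ASNS and STC2. They were found by symbol among the 61544 entries of each deposited count table, and all 10 were present. DDIT4, CHAC1 and ATF3 were chosen because they fell in HEL cells after DDX6 knockdown, so their HEL values are given as a description with no test. The theme came from the same contrast, so a HEL count of the other genes is not independent evidence of a direction.

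The study measured RNA in HEL, an acute myeloid leukaemia line with erythroid and megakaryocytic features, and in MOLM-13, a monocytic acute myeloid leukaemia line with a KMT2A fusion. In each line a control group, labelled wild type and given lentivirus with a control shRNA, was compared with a DDX6 knockdown group given lentivirus with a DDX6 shRNA. The 4 groups had 2 libraries apiece, and libraries with DDX6 shRNA are called knockdown libraries here. All groups shared lentiviral transduction, puromycin selection and RPMI medium with fetal bovine serum, L-glutamine, beta-mercaptoethanol and antibiotics, and the sources used here do not give the time after transduction. The HEL columns name hairpin 2 and the MOLM-13 columns name no hairpin, so whether both lines received the same one is not known. DDX6 is an RNA helicase needed for P-bodies, the cytoplasmic granules that hold untranslated mRNA, and the comparison in each line asked which transcripts changed when it was reduced.

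In the integrated stress response, kinases that sense amino acid shortage, misfolded protein, haem shortage or double-stranded RNA phosphorylate the alpha subunit of the initiation factor eIF2. General translation then falls, while translation of ATF4 mRNA, which carries upstream open reading frames, rises. ATF4 protein pairs with partners such as C/EBP gamma and activates genes for amino acid synthesis and uptake, redox balance and, through DDIT3 and ATF3, cell death. Because ATF4 is controlled largely at translation, its mRNA level is not a measure of its protein. In myeloid leukaemia cells this response is known for its part in survival under amino acid deprivation.

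ATF4 and C/EBP family proteins bind a composite element, the C/EBP-ATF response element, written TGATGNAA here. All 10 genes matched a RefSeq promoter on GRCh38.p14, and the element was found on either strand between 250 bases before and 50 bases after the start of 4 of them: ATF3, CHAC1, ASNS and CEBPG. By comparison, 4.46% of 27305 genes and 3.62% of 35116 promoters of the same length held it. The 30 bases around each match are shown because they carry the letters searched for, with the element in capitals, 5′ to 3′ on the strand of the gene.
ASNS (chr7:97872458-97872487, minus strand): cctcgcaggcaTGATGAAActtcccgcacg
CEBPG (chr19:33374060-33374089, plus strand): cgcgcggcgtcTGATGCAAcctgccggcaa
CHAC1 (chr15:40953251-40953280, plus strand): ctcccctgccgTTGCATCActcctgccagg
ATF3 (chr1:212565205-212565234, plus strand): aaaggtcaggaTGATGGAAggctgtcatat
In all 4 genes the RefSeq transcript start lies inside the GENCODE gene bounds given further on. The match lay 68 to 61 bases before that start in ASNS, 42 to 35 in CEBPG and 191 to 184 in ATF3. In CHAC1 it lay 209 to 202 bases before the start and reads as the reverse complement. The cAMP response element TGACGTCA, which ATF family proteins also bind, was in 0 of the 10 genes' promoters and in 2.25% of all genes. The ER stress response element, bound by ATF6, was in 0 of the 10 and in 0.0916% of all genes. Both strands were searched for each motif, no printed match overlaps another motif, and a match is only a description of the letters in these windows.

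Library totals ran from 10719829 to 12093544 counts for HEL and from 7888318 to 8174432 counts for MOLM-13. Levels are in CPM, the count scaled to a common library size by TMM, and 3 counts were worth 0.238 to 0.271 CPM for HEL and 0.378 to 0.399 CPM for MOLM-13. The lines matched their labels. The summed level of 10 erythroid and megakaryocytic markers was 2387 to 2678 CPM across HEL libraries and 29.1 to 35.9 CPM across MOLM-13 libraries, and that of 10 myelomonocytic markers was 291 to 295 CPM and 4874 to 5360 CPM. Summed markers of other cell types were higher with knockdown, mostly through a few genes. The 6 lymphoid markers summed to 7.36 to 8.40 CPM in HEL control against 14.04 to 18.18 CPM, and to 107 to 128 against 180 to 200 CPM for MOLM-13. The 7 stromal, endothelial and epithelial markers summed to 276 to 277 against 338 to 344 CPM in HEL, and to 271 to 277 against 523 to 568 CPM in MOLM-13. The lymphoid rise was mostly CD79A in HEL and CD3D and NKG7 in MOLM-13. The other rise was mostly PECAM1, at 204 and 214 against 263 and 251 CPM in HEL, and 264 and 261 against 513 and 552 CPM in MOLM-13. CD3E and COL1A2 were not higher in MOLM-13 knockdown libraries. The part of these markers in the results was not tested. DDX6 mRNA was at 53.8% of control in HEL and 57.4% in MOLM-13 (log2 fold changes -0.90 ± 0.07 and -0.80 ± 0.08, SE; edgeR adjusted p = 3.54e-14 and 2.56e-11). Changes below are log2 fold changes, DDX6 shRNA against control, with their SE, from edgeR's quasi-likelihood test over all 16499 genes that passed the filter, and a gene is said to rise or fall where its Benjamini-Hochberg adjusted p was under 0.05. The labels do not say that replicates came from separate cultures, so p-values cover the spread among these libraries, which may be technical. In bulk RNA, fewer cells of one state and less RNA per cell cannot be told apart.

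In HEL with DDX6 knockdown, DDIT4 was at 17.8% of its control level, CHAC1 at 28.7% and ATF3 at 31.9%. ATF4, CEBPG, SESN2 and ASNS fell there, with larger falls than in MOLM-13 by the test of the difference, and DDIT3 and TRIB3 did not change detectably. In MOLM-13, whose values were not the stated ground for choosing DDIT4, CHAC1 and ATF3, 7 of the 10 fell and 0 rose, where 14.3% of all tested genes were lower and 18.1% higher. The members were chosen with earlier results of both lines known, so this count is not independent evidence of a direction either. STC2 fell to 30.9% of control and the other 6 to between 75.5% and 84.1%. The 7 were 3 without MOLM-13 control replicate 2, and 4 without either knockdown library or with DESeq2.

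**Figure D1:**
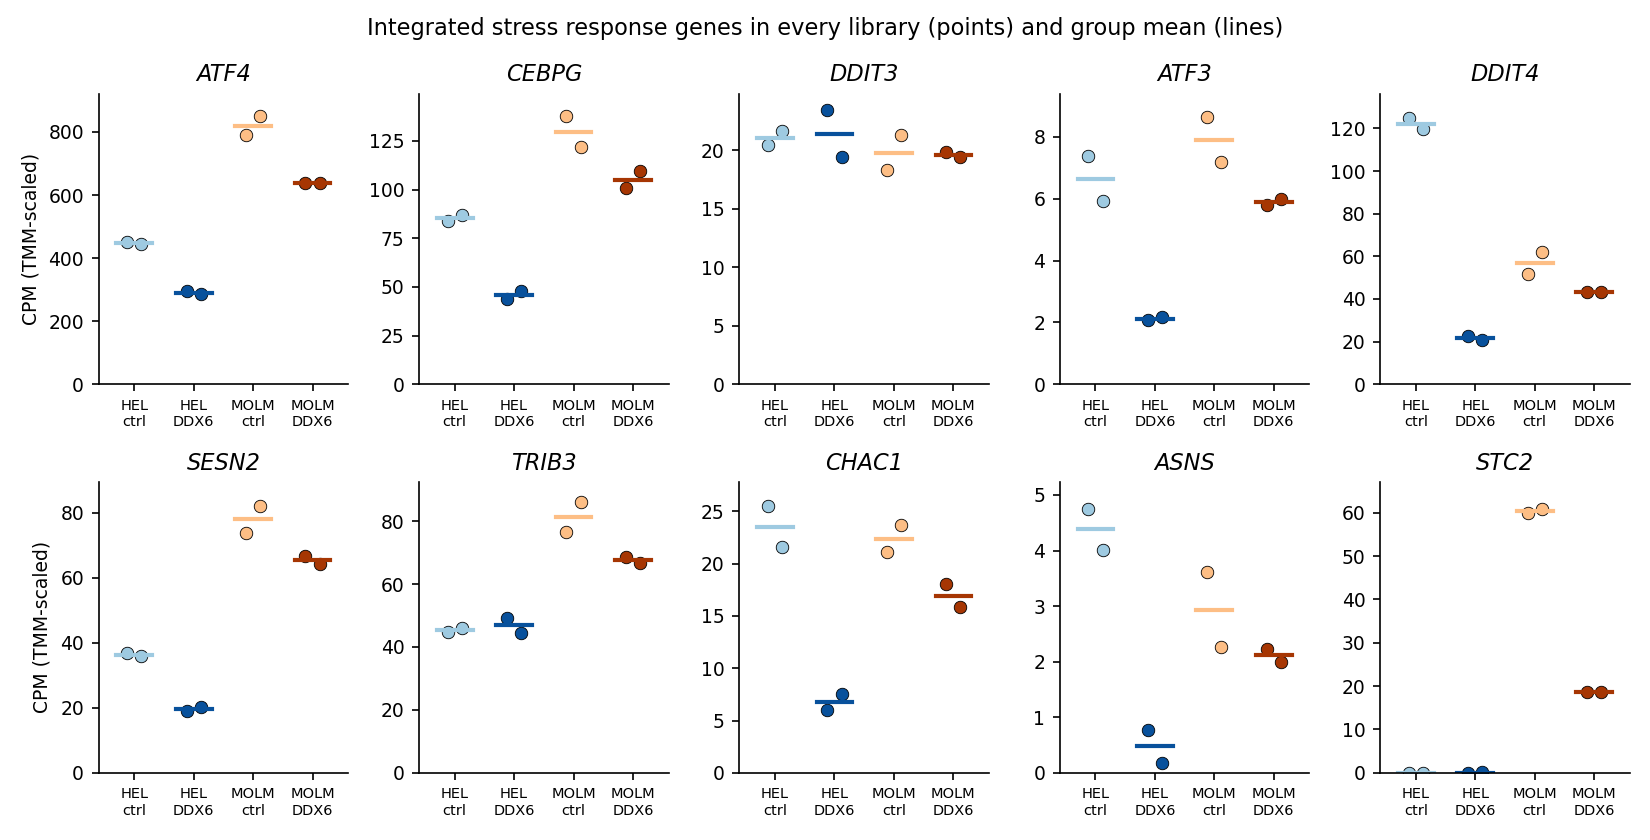
Level of each of the 10 genes in every library, in TMM-scaled CPM from 0 (vertical axis, a scale per gene), for HEL and MOLM-13 with control or DDX6 shRNA (horizontal axis). Points are libraries and lines are means of 2 libraries. DDIT4 lies at 120 and 125 CPM in HEL control and at 20.6 and 22.8 CPM in HEL knockdown libraries, while DDIT3 stays between 18.3 and 23.4 CPM in all 8.

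Among the transcription factors, ATF4 was the most abundant of the set. ATF4 (ENSG00000128272, GRCh38 chromosome 22, 39519695 to 39522685) had 452 and 445 CPM in the HEL control libraries and 296 and 286 CPM in the HEL knockdown libraries. In MOLM-13 it had 790 and 850 CPM in control and 638 and 637 CPM in knockdown libraries. Both knockdown libraries lay below both controls in each line. ATF4 fell by 0.63 ± 0.06 in HEL (edgeR adjusted p = 1.23e-11) and by 0.36 ± 0.06 in MOLM-13 (edgeR adjusted p = 2.86e-06). The fall was larger in HEL: subtracting its change in HEL from that in MOLM-13 gave 0.26 ± 0.08 (edgeR adjusted p = 0.0251). That difference did not pass without any one of the 4 HEL libraries, with edgeR adjusted p between 0.0549 without DDX6 shRNA replicate 1 and 0.132 without control replicate 1.

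CEBPG (ENSG00000153879, chromosome 19, 33373330 to 33382686) encodes C/EBP gamma, the dimer partner that binds the composite element with ATF4. It had 83.9 and 86.8 CPM in HEL control and 43.7 and 47.9 CPM in HEL knockdown libraries, which did not overlap. CEBPG fell there by 0.90 ± 0.08 (edgeR adjusted p = 4.82e-12). In MOLM-13 the levels were 138 and 122 CPM in control and 101 and 110 CPM in knockdown libraries, a fall of 0.30 ± 0.08 (edgeR adjusted p = 0.00224). Without MOLM-13 DDX6 shRNA replicate 1 that fall had an edgeR adjusted p of 0.102. The response differed between the lines by 0.59 ± 0.11 (edgeR adjusted p = 0.000187).

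DDIT3 (ENSG00000175197, chromosome 12, 57516588 to 57521737, minus strand) encodes CHOP, the pro-apoptotic factor that ATF4 induces under prolonged stress. HEL cells had 20.4 and 21.7 CPM with the control hairpin and 23.4 and 19.4 CPM with knockdown. MOLM-13 cells had 18.3 and 21.3 CPM, and 19.9 and 19.4 CPM. The groups overlapped in both lines. The log2 fold changes were 0.03 ± 0.11 in HEL and -0.01 ± 0.14 in MOLM-13 (edgeR adjusted p = 0.893 and 0.983). Of the exon bases of DDIT3, 27.2% are shared with MARS1 on the opposite strand. MARS1, which encodes methionyl-tRNA synthetase, stood at 347 CPM in HEL control and 248 CPM in HEL knockdown libraries, and since the strand setting of the counting is not given, its part in the DDIT3 counts was not tested.

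ATF3 (ENSG00000162772, chromosome 1, 212565334 to 212620777) encodes a stress-induced repressor downstream of ATF4. In HEL, where it was chosen for its fall, it had 7.37 and 5.94 CPM in control and 2.07 and 2.17 CPM in knockdown libraries, from 93 and 71 counts and 24 and 24 counts. The HEL log2 fold change was -1.65 ± 0.23. In MOLM-13, ATF3 had 8.63 and 7.18 CPM in control and 5.79 and 5.98 CPM in knockdown libraries. The libraries did not overlap, yet the change of -0.42 ± 0.21 was not called (edgeR adjusted p = 0.128).

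DDIT4 and SESN2 restrain the growth kinase complex mTORC1 when cells are stressed. DDIT4 (ENSG00000168209, chromosome 10, 72273920 to 72276036) acts through the TSC complex. In HEL, where it was chosen for its fall, it had 125 and 120 CPM in control and 22.8 and 20.6 CPM in knockdown libraries (1573, 1430, 265 and 228 counts). Control libraries were thus more than 5-fold higher than knockdown libraries (5.62-fold by the fitted log2 fold change of -2.49 ± 0.09). In MOLM-13 it had 51.6 and 62.3 CPM in control and 43.3 and 43.5 CPM in knockdown libraries. DDIT4 fell there by 0.39 ± 0.10 (edgeR adjusted p = 0.00144). Without MOLM-13 control replicate 2 the change was -0.24 and did not pass (edgeR adjusted p = 0.0747). An annotated antisense gene, DDIT4-AS1, covers 41.2% of the exon bases of DDIT4 and was not analysed here, and the strand setting of the counting is not given.

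SESN2 (ENSG00000130766, chromosome 1, 28259527 to 28282491) encodes sestrin 2, a leucine sensor that inhibits mTORC1 through GATOR2. It had 36.8 and 35.9 CPM in HEL control and 19.0 and 20.3 CPM in HEL knockdown libraries. The groups did not overlap, and SESN2 fell by 0.89 ± 0.10 (edgeR adjusted p = 1.52e-09). In MOLM-13 libraries it had 73.8 and 82.0 CPM with control and 66.8 and 64.2 CPM with DDX6 shRNA, a fall of 0.25 ± 0.09 (edgeR adjusted p = 0.0221). That call was lost without control replicate 2, where the change was -0.16, and without either knockdown library (edgeR adjusted p = 0.206, 0.0881 and 0.177), and with DESeq2 (adjusted p = 0.119). The response differed between the lines by 0.64 ± 0.13 (edgeR adjusted p = 0.00054).

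TRIB3 (ENSG00000101255, chromosome 20, 362835 to 397559) encodes a pseudokinase that binds ATF4 and AKT and limits both. It was one of the genes that did not move in HEL, with 44.6 and 46.1 CPM in control and 49.2 and 44.5 CPM in knockdown libraries (0.05 ± 0.09, edgeR adjusted p = 0.726). In MOLM-13 it had 76.4 and 86.0 CPM in control and 68.5 and 66.6 CPM in knockdown libraries. These groups did not overlap, and TRIB3 fell by 0.26 ± 0.09 (edgeR adjusted p = 0.0152). The fall did not pass without MOLM-13 control replicate 2 (a change of -0.17, edgeR adjusted p = 0.18), without DDX6 shRNA replicate 1 or 2 (0.0792 and 0.129), or with DESeq2 (adjusted p = 0.0822). The difference between lines was -0.31 ± 0.12 and did not pass (edgeR adjusted p = 0.0798), though it did without MOLM-13 control replicate 1 and with the GC trend removed (edgeR adjusted p = 0.0216 and 0.0211).

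CHAC1 (ENSG00000128965, chromosome 15, 40952962 to 40956519) encodes an enzyme that degrades glutathione. Chosen for its fall in HEL, it had 25.5 and 21.6 CPM there in control and 6.03 and 7.51 CPM in knockdown libraries, a log2 fold change of -1.80 ± 0.14. In MOLM-13, CHAC1 had 164 and 188 counts in control and 137 and 119 counts in knockdown libraries, or 22.4 ± 1.82 and 16.9 ± 1.55 CPM (SD, n = 2), and the groups did not overlap. It fell there by 0.41 ± 0.14 (edgeR adjusted p = 0.0215), a call lost without control replicate 2, without DDX6 shRNA replicate 2 and with DESeq2 (adjusted p = 0.159, 0.226 and 0.131).

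ASNS (ENSG00000070669, chromosome 7, 97852118 to 97872542, minus strand) encodes asparagine synthetase, a classic target of ATF4. Its counts were low. HEL control libraries held 60 and 48 and HEL knockdown libraries 9 and 2, while MOLM-13 held 28 and 18, and 17 and 15. In HEL, that was 4.76 and 4.01 CPM against 0.775 and 0.181 CPM. ASNS fell by 3.15 ± 0.38 (edgeR adjusted p = 6.57e-09), and only 0.097% of the 16499 tested genes had a lower HEL log2 fold change. The size rested on which DDX6 shRNA library was kept: -4.51 without replicate 1 and -2.48 without replicate 2. In MOLM-13 the change of -0.47 ± 0.36 did not pass (edgeR adjusted p = 0.354), and the response differed between lines by 2.68 ± 0.57 (edgeR adjusted p = 0.000647). An overlapping transcript on the same strand, ENSG00000284707, shares 44.6% of the ASNS exon bases and had 2 to 3 counts per HEL library and 8 to 14 counts per MOLM-13 library, and its part in the ASNS counts was not tested.

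STC2 (ENSG00000113739, chromosome 5, 173314713 to 173329503, minus strand) encodes stanniocalcin 2, a secreted glycoprotein induced by ATF4. It was seen in MOLM-13 alone of the 2 lines. HEL libraries held 0 counts in 3 cases and 1 count in the other, which gives no fold. In MOLM-13, STC2 had 59.9 and 60.9 CPM in control and 18.7 and 18.6 CPM in knockdown libraries. It fell by 1.69 ± 0.11 (edgeR adjusted p = 1.87e-16), and 2.21% of tested genes had a lower MOLM-13 log2 fold change.

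Across the 10 genes in MOLM-13 the median log2 fold change was -0.38, against 0.00 over all tested genes, and 32.4% of all tested genes passed in either direction. ATF4 and STC2 passed under all 15 alternatives, and ATF3, ASNS and DDIT3 under 0. Over the alternatives the adjusted p in MOLM-13 ranged from 2.01e-05 to 0.0747 for DDIT4, from 7.34e-05 to 0.102 for CEBPG, from 0.00704 to 0.226 for CHAC1, from 0.000709 to 0.18 for TRIB3 and from 0.00285 to 0.206 for SESN2. In HEL, 4 of the 6 genes that were not chosen for their fall and had a measurable HEL level were lower and 0 higher, where 14.1% of all tested genes were lower, 20.7% higher and 34.8% either. The 4 passed under all 15 alternatives. For the difference between the lines, 4 of these 6 (ATF4, CEBPG, SESN2 and ASNS) passed as more negative in HEL and 0 as more negative in MOLM-13, where 7.53% and 7.59% of all tested genes did and 15.1% in either direction. Over its alternatives that p ranged from 1.27e-05 to 0.132 for ATF4 and, for TRIB3, from 0.0211 to 0.365. The untested differences of the 3 genes chosen on HEL were 2.10 for DDIT4, 1.40 for CHAC1 and 1.23 for ATF3 on the log2 scale.

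**Figure D2:**
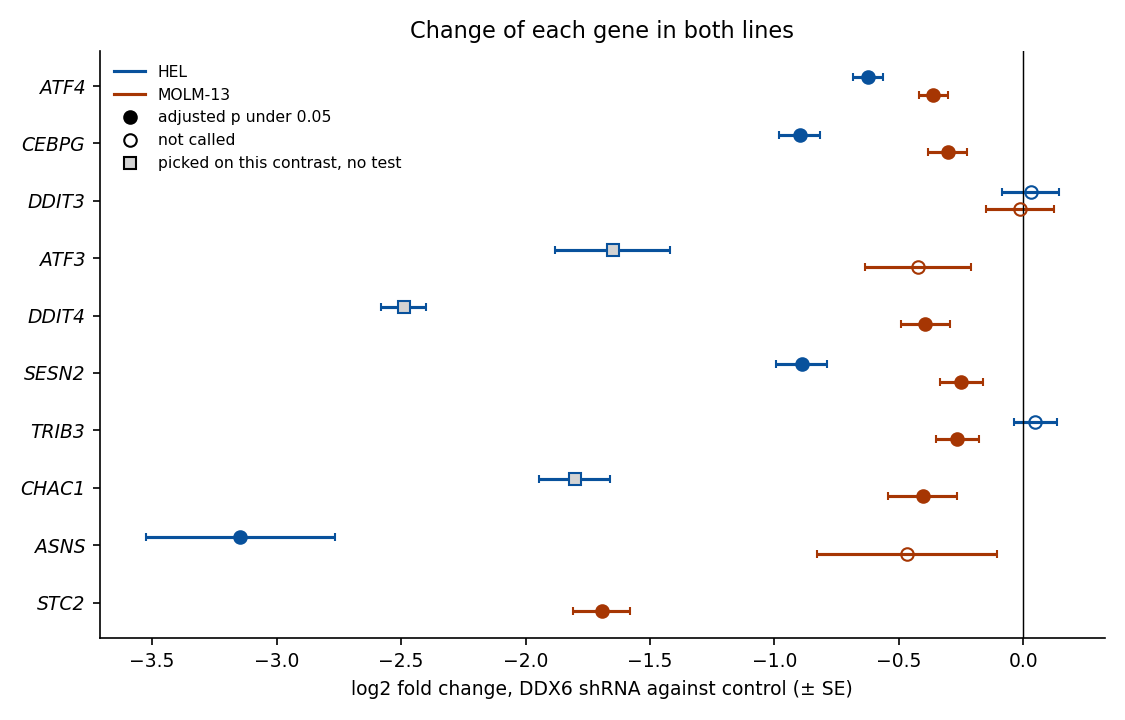
Log2 fold change with DDX6 shRNA against control (horizontal axis, ± SE) for each gene in HEL (blue) and MOLM-13 (dark orange). Filled circles passed the test, open circles did not, and grey squares are the 3 genes chosen on the HEL contrast, which has no test for them. HEL values spread from -3.15 for ASNS to 0.05 for TRIB3, and MOLM-13 values from -1.69 for STC2 to -0.01 for DDIT3. STC2 has no HEL value.

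The control cells of the lines held these transcripts at unlike levels. DDIT4 was higher in HEL control than in MOLM-13 control, by a log2 difference of 1.10 ± 0.08 (edgeR adjusted p = 3.69e-16). ATF4 (-0.87 ± 0.06), TRIB3 (-0.84 ± 0.09), SESN2 (-1.10 ± 0.09) and CEBPG (-0.61 ± 0.08) were lower in HEL control (edgeR adjusted p of at most 1.73e-09). STC2 had 948 counts over the MOLM-13 control libraries and 0 over the HEL control libraries, and was at least 495-fold higher in MOLM-13 against a floor of 3 counts over the HEL group. STC2 passed the filter on low counts through MOLM-13 alone, so its call had to be in that direction. Of the other 9 genes 5 differed, 1 higher and 4 lower in HEL, against 81.2% of all tested genes (40.8% higher and 40.4% lower), so the share was not above the background. Line and deposited table cannot be told apart in this comparison.

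Per kilobase of annotated exon, which allows levels to be compared between genes, the order in HEL control was ATF4 (178 ± 1.98 CPM per kb, SD, n = 2), DDIT4 (59.4 ± 1.74), CEBPG (19.3 ± 0.475), DDIT3 (16.1 ± 0.657), TRIB3 (13.2 ± 0.302), CHAC1 (11.4 ± 1.35), SESN2 (10.5 ± 0.183), ATF3 (1.65 ± 0.251) and ASNS (0.984 ± 0.118), with STC2 at 0 counts. The last place of ASNS rests on counts from a gene that shares exon bases with another on its strand, and how reads common to both were counted is not known. CHAC1 and SESN2 did not differ beyond their spread. In MOLM-13 control, ATF4 again came first (326 ± 16.8 CPM per kb), followed by CEBPG (29.4 ± 2.47), DDIT4 (27.7 ± 3.65), TRIB3 (23.6 ± 1.97), SESN2 (22.6 ± 1.69), DDIT3 (15.1 ± 1.63), CHAC1 (10.9 ± 0.883), STC2 (9.85 ± 0.113), ATF3 (1.96 ± 0.253) and ASNS (0.659 ± 0.212). There the SD ranges of CEBPG and DDIT4, of DDIT4 and TRIB3, and of TRIB3 and SESN2 overlapped, so the order within these pairs is not settled. With DDX6 shRNA, the HEL level of DDIT4 per kb went to 10.6 ± 0.757 CPM per kb, below that of DDIT3 at 16.4 ± 2.15.

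**Figure D3:**
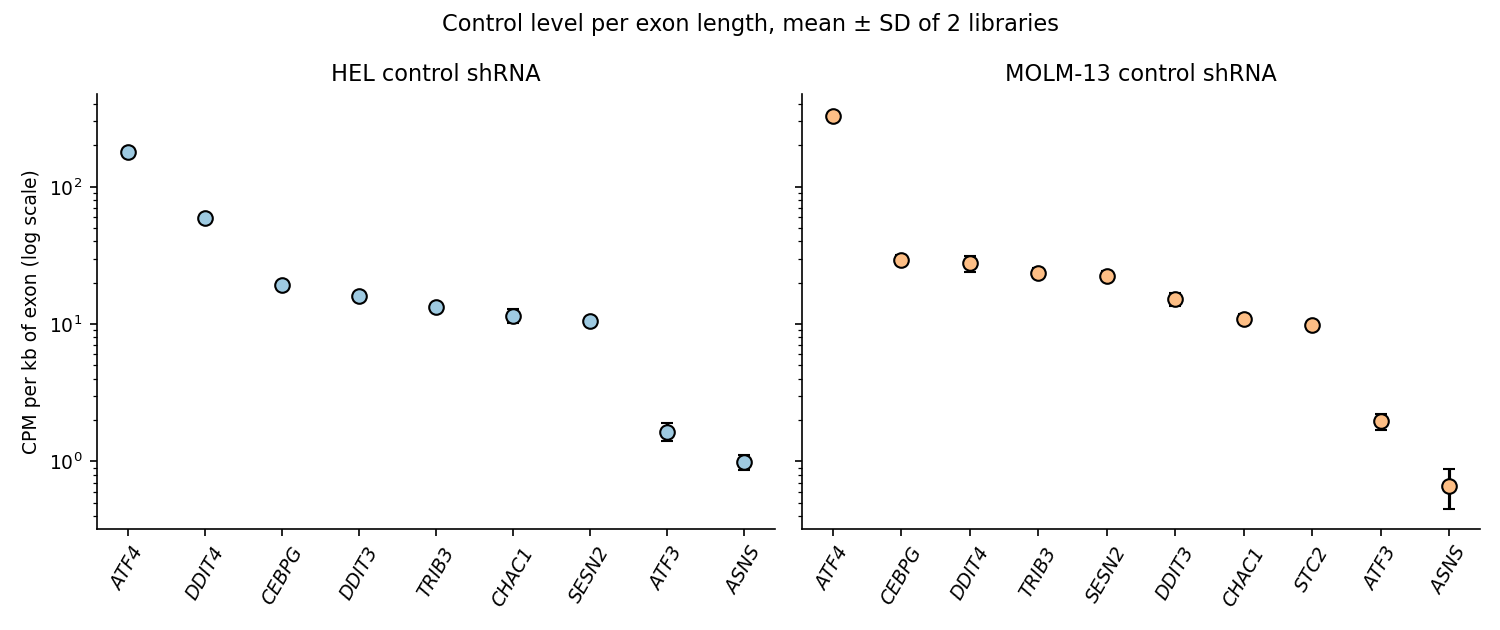
Level per exon length in control libraries, in TMM-scaled CPM per kilobase (vertical axis, log scale), with genes ordered from high to low in each line. Points are means and bars SD of 2 libraries; STC2 has no HEL point because it had 0 counts. ATF4 lies highest in both lines (178 and 326 CPM per kb), and DDIT4 is the next in HEL at 59.4 CPM per kb.

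The genes whose profile over the 8 libraries lay closest to that of each chosen gene were found by Euclidean distance between log2 CPM profiles centred on their mean, among 11491 genes of at least 5 CPM. For CHAC1 they were ATF3 (distance 0.524), CBS (0.581) and ENSG00000273373 (0.582). ATF3 was closest to JDP2 (0.448), CCNG2 (0.493) and CHAC1 (0.524). JDP2, for example, had 22.0 CPM in HEL control and 7.73 CPM in knockdown cells, against 29.4 and 21.9 CPM for MOLM-13. DDIT4 had no such close neighbour: CARF, CHAC1 and ZBTB12 came nearest, at distances of 1.19, 1.25 and 1.28. These distances are a description of 8 libraries of which the HEL ones chose the genes.

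The mRNAs of the set were compared with 13203 tested protein-coding genes, taking for each gene the annotated transcript with the longest coding sequence. An ATG upstream of the coding sequence was present in 8 of the 10, with 7 in ATF4, 4 in DDIT3 and 11 in STC2, and DDIT4 and CHAC1 had 0; among all tested coding genes 50.7% had at least 1. GC content ranged from 43.9% in CEBPG to 63.1% in TRIB3 (median 54.2%, against 49.6% over tested genes). The AU-rich pentamer ATTTA was found in the 3′ untranslated region of 5 of the 10, with 13 copies in STC2 and 9 in CEBPG, and in 65.8% of tested genes. ATF4, DDIT4, TRIB3, ASNS and SESN2 had 0 copies, and a link between this content and the responses was not tested.

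Other genes of the pathway were described by lists chosen with earlier results of these data known. Their counts are to be read against all tested genes, of which 14.1% fell and 20.7% rose in HEL, and 14.3% fell and 18.1% rose in MOLM-13. Upstream of ATF4, the 4 eIF2 alpha kinase genes did not pass in HEL, where EIF2AK1 came closest (-0.14 ± 0.06, edgeR adjusted p = 0.0829). Among 8 kinase and activator genes 3 fell there and 0 rose, against 14.1% and 20.7% of all tested genes: IMPACT, which inhibits GCN2 (81.5 to 53.5 CPM, -0.61 ± 0.08), OMA1 (-0.43 ± 0.10) and DELE1 (-0.31 ± 0.08), the last pair relaying mitochondrial stress to the kinase HRI (edgeR adjusted p of at most 0.00113). In MOLM-13 the kinase genes EIF2AK4 (0.34 ± 0.09) and EIF2AK2 (0.38 ± 0.11) rose and OMA1 (-0.32 ± 0.12) fell (edgeR adjusted p of at most 0.0448), and the OMA1 fall was lost under most alternatives, DESeq2 and the replicate block included. The medians of this list were -0.11 in HEL and 0.03 in MOLM-13, against 0.03 and 0.00 over all tested genes.

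Subunits of eIF2 and of its exchange factor eIF2B were listed with EIF2A and EIF2D, which are subunits of neither and fell in both lines. The list moved both ways in HEL, with 5 of 10 higher and 4 lower (median 0.16), against 20.7% and 14.1% of all tested genes. The 5 were 1 without HEL control replicate 2, 3 without HEL knockdown replicate 1 and 2 with DESeq2. EIF2S1, the subunit that is phosphorylated, rose from 129 to 161 CPM (0.32 ± 0.07, edgeR adjusted p = 0.000209) and EIF2S3 fell from 291 to 216 CPM (-0.43 ± 0.06, edgeR adjusted p = 4.78e-07). In MOLM-13, 0 rose and 3 fell (median -0.12), and the 3 were 1 without knockdown replicate 1. Of 5 phosphatase genes PPP1R15B, the constitutive subunit that targets the phosphatase to eIF2 alpha, fell in HEL (-0.48 ± 0.08) and in MOLM-13 (-0.57 ± 0.10; edgeR adjusted p = 2.85e-06 and 6.67e-06). The list had 2 falls and 0 rises in HEL and 1 and 0 in MOLM-13 (medians -0.16 and -0.17). The HEL falls were 1 without any one HEL library, with DESeq2 and with the replicate block, and the MOLM-13 fall became 3 without control replicate 1 and 2 without control replicate 2. Its stress-induced counterpart PPP1R15A, itself an ATF4 target, had 144 and 129 CPM in HEL control and DDX6 shRNA cells and did not pass there.

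Amino acid genes downstream of ATF4 fell broadly in HEL. Of 13 enzymes of serine, glycine and one-carbon metabolism and related steps, 11 fell and 0 rose (median -0.65), against 14.1% and 20.7% of all tested genes. PHGDH and PSAT1, the first enzymes of serine synthesis, went from 215 to 75.1 CPM and from 186 to 69.4 CPM, and the mitochondrial enzyme gene PCK2 went from 76.4 to 28.3 CPM (-1.43 ± 0.09, edgeR adjusted p = 1.19e-17). In MOLM-13, 5 fell and 1, ALDH18A1, rose (median -0.09), a rise no longer called with DESeq2. GPT2, which makes alanine, fell there by 0.62 ± 0.08, SHMT2 by 0.44 ± 0.06 and PHGDH by 0.36 ± 0.06 (edgeR adjusted p of at most 1.16e-05), while PCK2 was at 161 and 169 CPM. For 9 of the 13 the change was more negative in HEL by the test of the difference, and for 0 in MOLM-13. The 5 MOLM-13 falls were 3 with DESeq2, without control replicate 1 and without DDX6 shRNA replicate 1.

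Amino acid transporter genes fell in 10 of 11 tested cases in HEL and rose in 0 (median -0.40), where 14.1% of all tested genes fell. SLC7A11, the cystine transporter that feeds glutathione synthesis, went from 44.2 to 21.3 CPM (-1.06 ± 0.11), SLC1A4 from 79.1 to 44.6 CPM and SLC3A2 from 184 to 118 CPM (edgeR adjusted p of at most 3.04e-10). In MOLM-13, 6 fell and 0 rose (median -0.27), among them SLC3A2 (-0.40 ± 0.07) and SLC38A2 (-0.36 ± 0.08; edgeR adjusted p of at most 0.000167). The 6 were 3 without MOLM-13 DDX6 shRNA replicate 1. Both SLC3A2 and SLC7A11 thus fell in both lines, as ATF4, CEBPG and SESN2 did. The MOLM-13 falls of SLC7A11 (-0.40 ± 0.13, edgeR adjusted p = 0.0117) and SESN2 were not called with DESeq2.

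Genes for tRNA charging, listed with the tRNA export gene XPOT, mostly fell in HEL and mostly rose in MOLM-13. XPOT was among the genes that fell in HEL (-0.40 ± 0.06). In HEL, 9 of 13 fell and 0 rose (median -0.30), where 14.1% of all tested genes fell. GARS1 went from 374 to 239 CPM (-0.65 ± 0.06), CARS1 from 88.8 to 50.7 CPM (-0.81 ± 0.08) and MARS1 by -0.49 ± 0.06 (edgeR adjusted p of at most 2.85e-08). In MOLM-13, 7 rose and 1, MARS1, fell (median 0.18), where 18.1% of all tested genes rose. The MARS1 fall was not called without knockdown replicate 1. AARS1 rose there from 360 to 451 CPM (0.32 ± 0.06), SARS1 from 193 to 242 CPM (0.33 ± 0.07) and EPRS1 by 0.27 ± 0.06 (all with an edgeR adjusted p of at most 0.000745). The change was more negative in HEL for 10 of the 13 by the test of the difference. Without MOLM-13 DDX6 shRNA replicate 2 the 7 rises were 3.

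The rest of the stress-response targets fell in 13 of 22 tested cases in HEL and rose in 3 (median -0.31), against 14.1% and 20.7% of all tested genes. BBC3, which encodes the pro-apoptotic protein PUMA, went from 23.3 to 7.70 CPM (-1.59 ± 0.14), JDP2, a bZIP repressor, from 22.0 to 7.73 CPM (-1.51 ± 0.14) and PMAIP1, which encodes NOXA, from 62.3 to 41.1 CPM (-0.60 ± 0.09; edgeR adjusted p of at most 2.62e-07). SQSTM1 and HMOX1, which are also NRF2 targets, rose in HEL (0.62 ± 0.07 and 1.31 ± 0.19) and in MOLM-13 (0.51 ± 0.07 and 1.15 ± 0.17; edgeR adjusted p of at most 3.60e-07). In MOLM-13, 4 fell and 5 rose (median -0.12), and the 5 were 3 with DESeq2, with the line fitted alone and without either knockdown library. RRAGD (-0.80 ± 0.12) and ATF5 (-0.57 ± 0.10) were among those that fell (edgeR adjusted p of at most 1.06e-05), and BBC3 stood at 23.3 and 22.6 CPM. On the opposite strand, SQSTM1 shares 20.7% of its exon bases with MRNIP, and ATF5 shares 21.2% with NUP62. The part of MRNIP and NUP62 in these counts was not tested.

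The other arms of the unfolded protein response, ATF6 and XBP1, were listed together, and most of the listed genes moved the opposite way in HEL. Of 18 genes of the ATF6 and XBP1 branch, 14 rose and 1 fell in HEL (median 0.68), against 20.7% and 14.1% of all tested genes, where DDIT4, CHAC1 and ASNS were low. HSPA5, the ER chaperone BiP, went from 502 to 1183 CPM (1.24 ± 0.06), the calcium-binding chaperone gene CALR from 420 to 837 CPM (0.996 ± 0.0581) and HYOU1 from 396 to 739 CPM (0.90 ± 0.06; edgeR adjusted p of at most 3.69e-16). In MOLM-13, 10 rose and 2 fell (median 0.28), where 18.1% of all tested genes rose; the 2 falls were 0 without knockdown replicate 1 and 1 without control replicate 1 or knockdown replicate 2. PDIA6 rose from 309 to 600 CPM (0.96 ± 0.06), although 25.2% of its exon bases are shared with ATP6V1C2 on the opposite strand, and HYOU1 rose by 0.73 ± 0.07 (edgeR adjusted p of at most 4.93e-12). For 7 of the 18 the rise was larger in HEL by the test of the difference. EDEM1 fell in both lines (-0.34 ± 0.07 and -0.25 ± 0.07; edgeR adjusted p = 0.000334 and 0.00745).

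**Figure D4:**
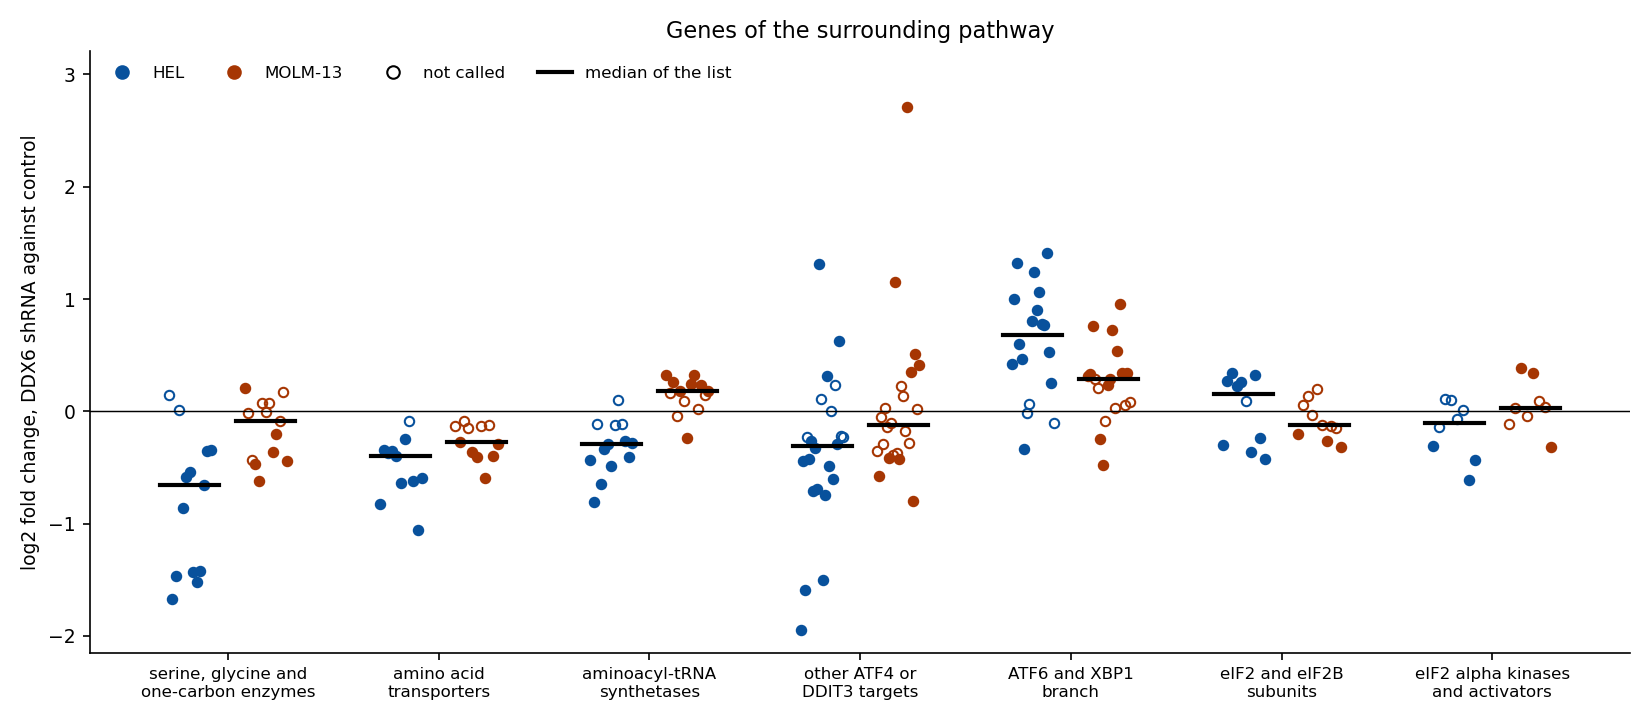
Log2 fold change with DDX6 shRNA against control (vertical axis) of each tested gene in 7 lists around ATF4 (horizontal axis), in HEL (blue) and MOLM-13 (dark orange). Filled points passed the test, open points did not, and black lines are list medians. In HEL the medians run from -0.65 for serine and one-carbon enzymes to 0.68 for the ATF6 and XBP1 branch. The tRNA synthetases, listed with the tRNA export gene XPOT, have medians of -0.30 in HEL and 0.18 in MOLM-13.

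Genes related to single members were also read. Among 18 tested mTORC1 regulators beside DDIT4 and SESN2, 5 rose and 5 fell in HEL (median 0.09), against 20.7% and 14.1% of all tested genes, and 4 rose and 2 fell in MOLM-13 (median 0.05). The HEL falls were 1 without control replicate 1, 3 without knockdown replicate 1 and 2 without knockdown replicate 2 or with DESeq2, and the HEL rises were 3 without knockdown replicate 2. The MOLM-13 falls were 1 without knockdown replicate 2. SESN3, a sestrin like SESN2, rose in HEL from 17.5 to 33.0 CPM (0.92 ± 0.12) and in MOLM-13 from 10.2 to 17.9 CPM (0.81 ± 0.17; edgeR adjusted p = 3.52e-08 and 0.0002), while NPRL3, a GATOR1 subunit, fell in both (-0.58 ± 0.09 and -0.52 ± 0.11; edgeR adjusted p = 6.99e-07 and 0.000241). Of 12 glutathione genes beside CHAC1, 1 rose and 3 fell in HEL and 5 rose and 2 fell in MOLM-13 (medians -0.03 and 0.14). The HEL share of calls was near the 34.8% of all tested genes. Of the 3 HEL falls, that of GGT1 lay near the floor of 3 counts, with means of 0.242 CPM in control and 0 CPM in knockdown libraries. The HEL rise, GSS, was not called without control replicate 2 or knockdown replicate 1, and the MOLM-13 falls were 0 with DESeq2, without control replicate 1 and without knockdown replicate 1, and 1 without any one HEL library or knockdown replicate 2. GSS, which completes glutathione synthesis, rose in HEL (0.24 ± 0.07) and in MOLM-13 (0.37 ± 0.07), and GCLC fell in HEL (-0.50 ± 0.09; edgeR adjusted p of at most 0.00317). TRIB1, a relative of TRIB3, rose in HEL from 97.1 to 147 CPM (0.59 ± 0.07, edgeR adjusted p = 4.17e-09), the 1 call among the 2 tested relatives of TRIB3 and STC2 in HEL, with 0 in MOLM-13. Of 25 bZIP relatives, 3 rose and 7 fell in each line (medians -0.09 and -0.13), against 14.1% and 14.3% of all tested genes falling. The MOLM-13 falls were 4 without knockdown replicate 2 and with DESeq2.

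DDIT4 is also known as a target of hypoxia, glucocorticoids and p53, and SESN2 as a target of p53. Hypoxia-response genes had 2 rises and 5 falls among 11 in HEL (median -0.18) and 2 and 3 in MOLM-13 (median -0.16), where 14.1% and 14.3% of all tested genes fell. The HEL falls were 3 without either control library, without knockdown replicate 2 and with DESeq2, the HEL rises 1 without control replicate 1, and the MOLM-13 falls 1 without knockdown replicate 1. BNIP3, a mitophagy receptor gene, fell in HEL from 125 to 53.2 CPM (-1.23 ± 0.08) and VEGFA in both lines (-0.67 ± 0.07 and -0.66 ± 0.08; edgeR adjusted p of at most 8.94e-09). Of 7 glucocorticoid-response genes 2 rose and 0 fell in HEL, against 20.7% and 14.1% of all tested genes. The 2 were PER1 (0.55 ± 0.10) and FKBP5 (0.34 ± 0.07), and in MOLM-13 FKBP5 rose (0.56 ± 0.08) and ZBTB16 fell (-0.66 ± 0.26). For these 4 changes the edgeR adjusted p was at most 0.0422. The ZBTB16 fall was lost under most alternatives, DESeq2 and the replicate block included. Of 12 p53 targets, 6 rose and 1, BBC3, fell in HEL (median 0.18), where 20.7% of all tested genes rose and 14.1% fell. CDKN1A rose there to 39.1 CPM (2.96 ± 0.13, edgeR adjusted p = 6.28e-23). In MOLM-13 1 rose, or 2 without either control library, and 3 fell (median 0.01), among them MDM2, from 168 to 107 CPM (-0.66 ± 0.08, edgeR adjusted p = 1.56e-09).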

How the data were processed

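RNA was measured in 8 libraries. Whole-number counts per gene, not normalized, were taken from the 2 tables the authors deposited, 1 per cell line; 0 columns were left unused. The submitters' processing notes name the GRCh38 build and DESeq2, SAMtools 1.12 and STAR, with no role or order; counter, annotation and strand setting were not given in those notes. Columns were assigned by line, shRNA and replicate number. Genes were filtered with filterByExpr (minimum count 10, 4 groups), which left 16499, all 10 members included. Libraries were TMM-scaled, and 1 edgeR 4.0.16 model (R 4.3.3; 4 group means, 4 residual degrees of freedom) gave every contrast, with Benjamini-Hochberg adjustment over all genes tested. SE is the absolute log2 fold change divided by the square root of F. No pair of replicates agreed within sampling noise (chi-square per degree of freedom 1.41 to 3.37).

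The members and lists were chosen with earlier results of these data, both lines included, known. Named genes were all members, DDX6, in each list up to 3 called genes per direction and line with the smallest adjusted p, and the 3 nearest profiles of DDIT4, CHAC1 and ATF3. Outside this rule are PPP1R15A, EIF2AK1, XPOT and genes named for an exon overlap. PPP1R15A was chosen after its values were seen, and EIF2AK1 as the kinase gene closest to passing in HEL. GENCODE 29 (56974 entries matched) gave coordinates, exon lengths, GC content and overlaps, and RefSeq gave promoters. Alternatives were RLE and upper-quartile scaling, no filter, DESeq2 1.42.0, each line alone, a replicate block, leaving out each library, and removal of a GC trend.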

Additional observations from a re-analysis of the deposited data

Results flagged for a closer look

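For 4 of the 6 members not chosen on HEL that had a measurable HEL level the response to DDX6 shRNA differed between the lines by edgeR's test of the difference, given as the MOLM-13 log2 change minus the HEL log2 change. These values were 2.68 for ASNS, 0.64 for SESN2, 0.59 for CEBPG and 0.26 for ATF4. Of all tested genes, 15.1% passed the test of the difference in either direction. In the lists with at least 5 such differences, the gene with the smallest adjusted p was PCK2 (1.504), CARS1 (0.97), HSPA5 (-0.95), JDP2 (1.08), BBC3 (1.54) and CDKN1A (-2.85; edgeR adjusted p of at most 3.61e-05 for these 6). Baseline levels differ between the lines and the hairpin may too, and their part in these differences was not tested.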

How the results depend on the processing

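No member's called direction turned under any alternative. The 7 members that fell in MOLM-13 were 4 with DESeq2, and 3 to 7 on leaving out 1 library at a time. Leaving out 1 library gave 4 HEL calls among the 6 members that could be tested there, 3 to 5 members that differed between lines and 6 to 7, STC2 included, that differed between controls. Among the member values under alternatives, 509 were counted as unchanged, 17 lost the call and 10 gained one. The 509 include values of DDIT4, CHAC1 and ATF3 in HEL and for the difference between lines, which have no test. For these, unchanged means a shift smaller than the spread of replicates. The labels do not say that replicate numbers mark shared cultures (correlation of replicate differences 0.05 in HEL and -0.04 in MOLM-13); with a replicate block the counts of called members were 4 in HEL, 7 in MOLM-13, 4 for the difference and 6 between controls, and it changed no member's call. With that block 103 pathway genes were called in HEL and 72 in MOLM-13, against 108 and 78. DDX6 had -0.90 and -0.80 with the block. Over all genes, 3417 were called higher and 2322 lower in HEL, against 2178 and 1383 with DESeq2 and 2216 and 1507 without HEL control replicate 2. For the difference between lines the counts were 1242 and 1253, against 803 and 691 with DESeq2, 849 and 662 without HEL control replicate 2 and 976 and 661 without MOLM-13 knockdown replicate 2. The causes were not tested. At 11 counts over a group, as for ASNS in HEL, depth limits the size of a fall.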
